A study of Mus musculus with 10 samples.

Results

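Cytosolic ribosomal protein genes encode the proteins of the large and small subunits of the ribosomes that translate nuclear messages. They were taken here by symbol: Rpl or Rps followed by a number, with the letters a, l, x or y allowed after it, together with the stalk genes Rplp0 and Rplp2 and the gene Rpsa. Only probe sets annotated with 1 symbol were used, and each gene was read from its probe set with the highest mean. This gave 49 genes of the 18193 measured, 26 of the large subunit and 23 of the small subunit. A further 28 matching symbols, among them those of Rplp1, Rps27a, Rpl3 and Rpl10, occurred only on probe sets annotated with several symbols and were kept out of the gene table. The symbol rule itself used no measured difference between groups, but the members were chosen with earlier results of these data known.

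A ribosome joins ribosomal RNA, including the 18S rRNA of the small subunit, to a set of ribosomal proteins in fixed proportions. The genes for these proteins are among the most highly transcribed of a cell, and most of their messages start with an uninterrupted run of pyrimidines, the terminal oligopyrimidine (TOP) tract, through which the mTOR pathway controls their translation. In brain ischaemia translation is known to fall early through phosphorylation of initiation factors.

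RNA came from the operated-side brain hemisphere of male mice, collected 24 h after occlusion of the middle cerebral artery (MCAO, a stroke model) or sham surgery, and was hybridised to Affymetrix arrays. The groups were WT sham (2 arrays), WT MCAO (3 arrays), Hsp72Tg sham (2 arrays) and Hsp72Tg MCAO (3 arrays). Hsp72Tg mice overexpress Hsp72, a stress-inducible heat shock protein. The labels name neither the construct nor its promoter, and give no age or strain. The study asks how Hsp72 bears on the response to stroke, astrocyte activation in particular. Values are log2 RMA values, and differences are differences of mean log2 values with their standard error (SE). The labels do not say whether each array came from 1 animal, so the p-values measure only the spread between these arrays. In whole-hemisphere RNA, fewer cells of a type and less RNA per cell cannot be told apart.

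Array medians lay between 6.67 and 6.73. Defining markers of neurons were bright in the 4 groups, with a mean log2 level of 12.3 to 12.7 over 8 of 8 listed genes. The array Hsp72Tg MCAO 1 stood apart from the other MCAO arrays: without it, 12.4% of all genes passed the test of MCAO against sham over both genotypes, against 1.46% with it. Leaving out any other single array gave between 0.0605% and 1.22%, so that share is itself unsteady. In the member genes another array stood apart, Hsp72Tg sham 2. Where the median over all 49 members in a comparison turns on an array, it is given with and without that array. Counts and medians of subunits, of bright and dimmer members, of other gene sets and of probe sets are given with all arrays only, and may turn on the same arrays.

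The annotated start sites of 43 members were found in the RefSeq promoter table (GRCm38.p6). The windows below cover 15 bases before and 15 bases from the annotated first base, on the strand of the gene, with the longest run of C or T in capitals. The windows of Rpl7a, Rpl35, Rplp2, Rps18, Rps6 and Rpl14 are shown because the run spans the annotated first base, as in a TOP tract. Rplp0, Rps27l, Rps25, Rpsa and Rps26 follow because they were among the 7 members with the highest differences after MCAO. The others of these 7, Rpl27a and Rpl22, are not shown. In Rpl27a a run of 20 C or T spans the annotated first base, and in Rpl22 no run does.
Rpl7a, chr2:26910792-26910821, plus strand: aTTCCCTCTTCTTTCTTTCTCCagcagccg
Rpl35, chr2:39005117-39005146, minus strand: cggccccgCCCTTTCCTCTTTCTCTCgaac
Rplp2, chr7:141447636-141447665, plus strand: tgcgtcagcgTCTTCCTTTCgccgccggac
Rps18, chr17:33955651-33955680, minus strand: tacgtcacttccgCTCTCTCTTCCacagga
Rps6, chr4:86857353-86857382, minus strand: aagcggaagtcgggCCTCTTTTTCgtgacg
Rpl14, chr9:120571502-120571531, plus strand: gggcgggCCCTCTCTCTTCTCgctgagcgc
Rplp0, chr5:115559452-115559481, plus strand: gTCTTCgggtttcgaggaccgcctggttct
Rps27l, chr9:66946071-66946100, plus strand: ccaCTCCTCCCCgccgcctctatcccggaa
Rps25, chr9:44407699-44407728, plus strand: TTTTTCCgacatcttagcgaggctgctgtg
Rpsa, chr9:120127751-120127780, plus strand: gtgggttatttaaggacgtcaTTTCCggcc
Rps26, chr10:128626492-128626521, minus strand: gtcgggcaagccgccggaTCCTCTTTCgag

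In 13 of the 43 members (30.2%) the annotated first base lay in a run of at least 5 C or T, against 9.97% of 27025 genes. A run of at least 6 within the window occurred in 25 members (58.1%) and in 29% of all genes. The string CCGGAAG, searched on both strands of the 300 bases around the start, occurred in 21 members (48.8%) and in 9.14% of all genes. TATAAA occurred in 6 members (14%) and in 14.2% of all genes, CTTTCC in 18 (41.9%) and 26.4%, and CTCTTTC in 7 (16.3%) and 8.06%. These letter matches are descriptions of the annotated windows, and a start placed a few bases off moves the run away from the first base. The median difference after MCAO was 0.09 in the 25 members with a run of at least 6 and 0.11 in the 18 without one. With and without CCGGAAG it was 0.11 (n = 21) and 0.09 (n = 22).

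After MCAO the cytosolic ribosomal protein genes had slightly higher values than after sham surgery, and no single member passed the test. Over both genotypes (6 MCAO arrays against 4 sham arrays) 41 of 49 members had a higher mean after MCAO, against 42.5% of all genes. Their median log2 difference was 0.10, against -0.03 over all genes, and the middle 50% of the members lay between 0.04 and 0.15. This reading rested largely on 1 control array: without Hsp72Tg sham 2 the median was 0.01 with 27 of 49 members higher, and without Hsp72Tg sham 1 it was 0.19 with 45 higher. Of the members, 0 passed limma's test at an adjusted p under 0.05, where 1.46% of all genes passed. The lowest adjusted p of a member was 0.124, for Rplp0. At an unadjusted p under 0.05, 7 members stood out (6 higher and 1 lower), which is 14.3% of the members against 19.1% of all genes. Most differences were small, and 3 of 49 members differed by at least 0.3, against 13.2% of all genes. With limma's array weights 1 member passed, Rplp0, where 6.13% of all genes passed. Large subunit genes were higher in 22 of 26 (median 0.12) and small subunit genes in 19 of 23 (median 0.08).

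**Figure D1:**
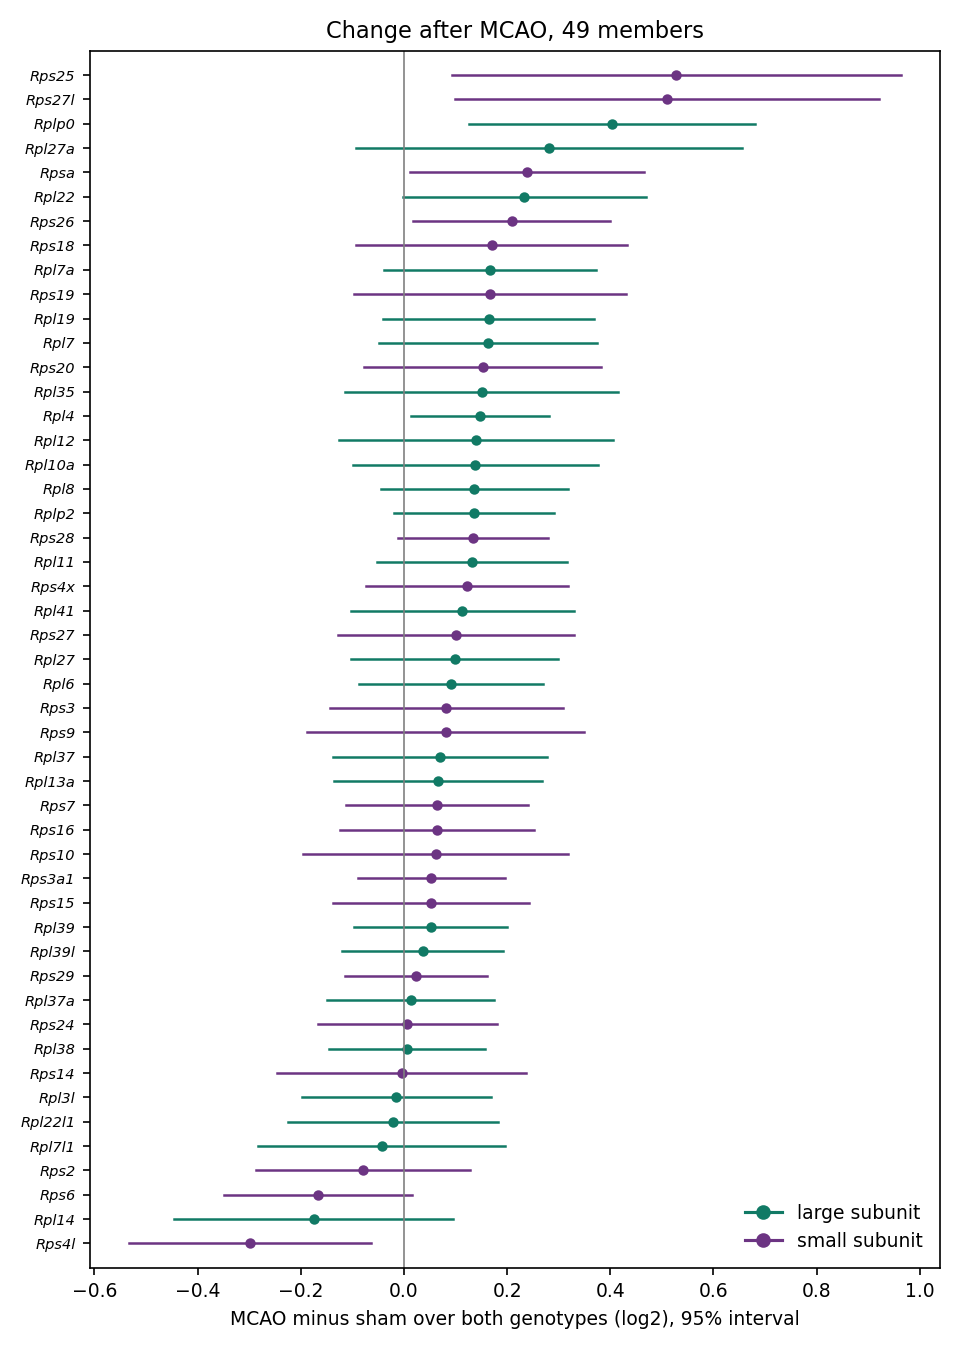
Log2 difference MCAO minus sham over both genotypes for each of the 49 members, with the 95% confidence interval of the limma contrast; green, large subunit; purple, small subunit. The points run from -0.30 (Rps4l) to 0.53 (Rps25), 41 lie above 0, and no member passed after adjustment over all genes.

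The probe sets of the members fell into bright ones, 35 with a mean of at least 11, and 14 dimmer ones. Brightness is a property of the probe set and does not rank the messages. Of the bright members, 32 of 35 were higher after MCAO (median 0.12), while 35.7% of the 1306 genes of that brightness were higher (median -0.05). Of the dimmer members, 9 of 14 were higher (median 0.06).

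Rplp0 encodes the protein that anchors the stalk of the large subunit, where elongation factors dock. Its values were 11.72 and 11.83 in WT sham, 12.09, 12.43 and 12.26 in WT MCAO, 12.07 and 11.56 in Hsp72Tg sham, and 11.97, 12.08 and 12.38 in Hsp72Tg MCAO. In WT every MCAO array lay above both sham arrays, while in Hsp72Tg the sham arrays lay far apart and the higher of them fell among the MCAO arrays. The difference over both genotypes was 0.40 (SE 0.124; 95% interval 0.13 to 0.68; limma adjusted p = 0.124), or 0.28 without Hsp72Tg sham 2 and 0.53 without Hsp72Tg sham 1. Rplp2, whose acidic protein forms part of the stalk's flexible arm, differed by 0.14 (SE 0.069; limma adjusted p = 0.322). Its values ran from 12.74 in Hsp72Tg sham 2 to 13.08 in WT MCAO 2. Rpl12, whose protein lies at the base of the stalk, differed by 0.14 (SE 0.119), with values between 7.39 and 8.04.

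Rps25 encodes a small subunit protein used in initiation from internal ribosome entry sites, and it had the largest difference of the members. It was read from a dimmer probe set, with a mean of 8.59. Its values were 8.27 and 8.28 in WT sham, 8.78, 8.69 and 8.79 in WT MCAO, 8.54 and 8.01 in Hsp72Tg sham, and 8.19, 9.15 and 9.21 in Hsp72Tg MCAO. All MCAO arrays except Hsp72Tg MCAO 1 lay above all 4 sham arrays. The difference was 0.53 (SE 0.195; limma adjusted p = 0.182). Without Hsp72Tg MCAO 1 it was 0.69 and passed (limma adjusted p = 0.00299), in a fit in which 12.4% of all genes passed. Rpl27a, a large subunit gene also on a dimmer probe set, had a similar order of arrays. Its values were 7.35 and 7.20 in WT sham, 7.63, 7.45 and 7.44 in WT MCAO, 7.45 and 6.96 in Hsp72Tg sham, and 7.01, 7.87 and 7.72 in Hsp72Tg MCAO. It differed by 0.28 (SE 0.167; limma adjusted p = 0.394), and by 0.41 without Hsp72Tg MCAO 1 (limma adjusted p = 0.0367). Rplp0 was the remaining member that passed without that array, at 0.45 (limma adjusted p = 0.0452).

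Rps27l is a paralogue of Rps27 known as a target of p53. It measured 8.93 and 9.08 in WT sham, 9.55, 9.72 and 9.60 in WT MCAO, 9.52 and 8.56 in Hsp72Tg sham, and 9.10, 9.44 and 9.78 in Hsp72Tg MCAO. The WT groups were clearly separate, and the Hsp72Tg sham arrays were almost 1 log2 unit apart, with every Hsp72Tg MCAO array but the highest below Hsp72Tg sham 1. The difference over both genotypes was 0.51 (SE 0.183; limma adjusted p = 0.172), and its 3 probe sets gave 0.46, 0.46 and 0.51. It was 0.27 without Hsp72Tg sham 2 and 0.75 without Hsp72Tg sham 1. In Hsp72Tg alone it was 0.40 with both sham arrays and -0.08 without Hsp72Tg sham 2. Rps27 itself differed by 0.10 (SE 0.102), with values between 7.92 and 8.51 and overlapping groups, and by -0.02 without Hsp72Tg sham 2.

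Rpsa encodes a small subunit protein also described as a laminin receptor precursor. Its values were 12.74 and 12.73 in WT sham, 12.90, 13.07 and 13.15 in WT MCAO, 12.82 and 12.76 in Hsp72Tg sham, and 12.72, 12.92 and 13.23 in Hsp72Tg MCAO. Hsp72Tg MCAO 1 was the lowest of the 10 arrays, and the other 5 MCAO arrays lay above all sham arrays. The difference was 0.24 (SE 0.101; limma adjusted p = 0.240). For this gene the Hsp72Tg sham arrays differed by only 0.06. Rps26 differed by 0.21, with values from 12.37 to 12.79.

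**Figure D2:**
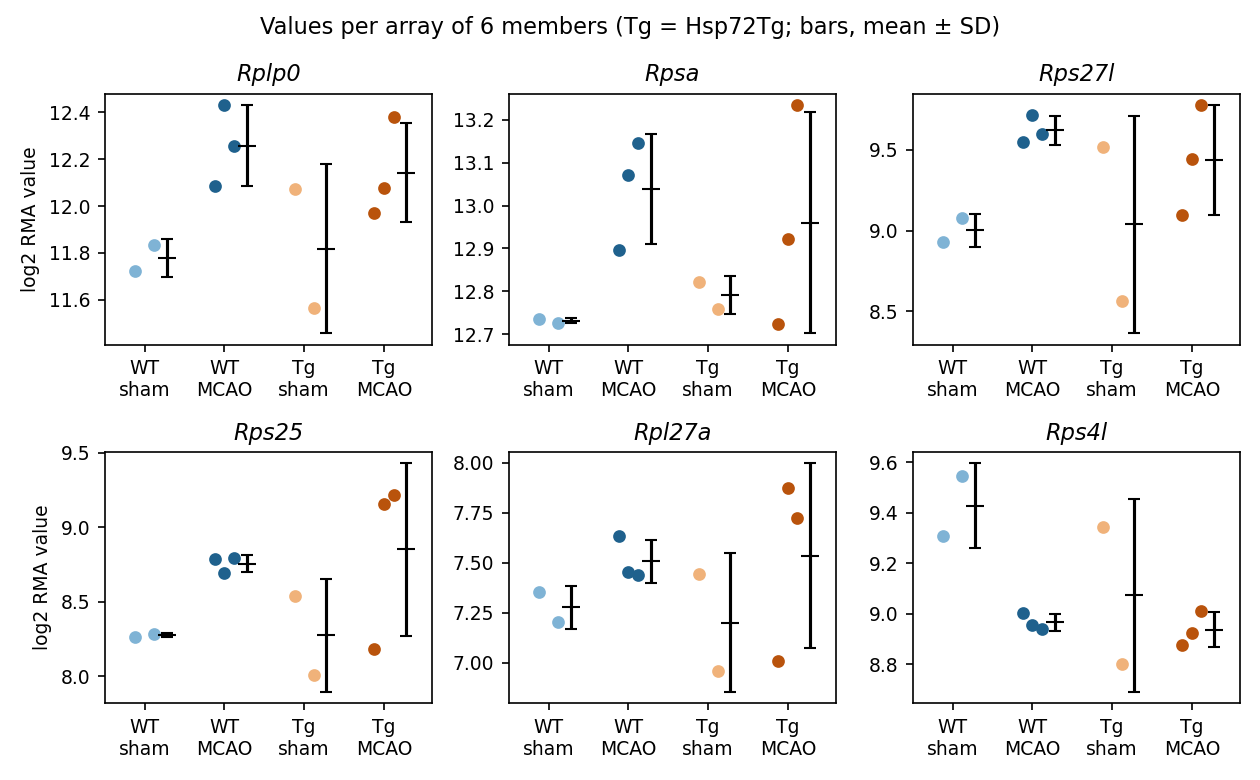
Log2 RMA values of 6 members in each array (points) by group, with the group mean and SD (bars; n = 2 sham, n = 3 MCAO); the vertical scale differs between panels and does not start at 0. In WT, MCAO and sham arrays do not overlap for any of these 6 genes, and in Hsp72Tg they overlap for each of them.

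Rps4l was the member with the lowest difference. Its values were 9.31 and 9.55 in WT sham, 9.004, 8.96 and 8.94 in WT MCAO, 9.34 and 8.80 in Hsp72Tg sham, and 8.87, 8.92 and 9.01 in Hsp72Tg MCAO. The 6 MCAO arrays lay within a narrow band, below 3 of the 4 sham arrays, and Hsp72Tg sham 2 was the lowest of all. The difference was -0.30 (SE 0.105; limma adjusted p = 0.165), or -0.43 without Hsp72Tg sham 2 and -0.16 without Hsp72Tg sham 1. Its paralogue Rps4x, the X-linked gene for ribosomal protein S4, differed by 0.12 (SE 0.088), with values from 12.83 in Hsp72Tg sham 2 to 13.26 in Hsp72Tg MCAO 3.

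Rps6 encodes the substrate of S6 kinase downstream of mTOR and was among the few members with lower means in both genotypes. It measured 8.16 and 8.41 in WT sham, 7.97, 8.21 and 8.12 in WT MCAO, 8.49 and 8.31 in Hsp72Tg sham, and 8.25, 8.31 and 8.21 in Hsp72Tg MCAO. In Hsp72Tg the MCAO arrays all lay below the sham arrays by a small margin, and in WT the groups overlapped. The difference was -0.17 (SE 0.081; limma adjusted p = 0.298). The 4 members with lower means in both genotypes were Rpl14, Rps2, Rps4l and Rps6, or 8.2% of the members, against 40.7% of all genes. Rpl14 differed by -0.18 (SE 0.121), varied between 6.20 and 6.88, and differed by -0.31 without Hsp72Tg sham 2 and by -0.04 without Hsp72Tg sham 1. Members with higher means in both genotypes numbered 37 (75.5%), against 28.4% of all genes. That count turned on Hsp72Tg sham 2: without it, only 15 of 49 members were higher after MCAO in Hsp72Tg and 34 were lower.

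The other paralogue pairs were Rpl22 and Rpl22l1, Rpl39 and Rpl39l, and Rpl7 and Rpl7l1, with Rpl3l read alone. Rpl22, an RNA-binding large subunit protein, had 11.70 and 11.80 in WT sham, 11.99, 12.20 and 12.04 in WT MCAO, 12.002 and 11.61 in Hsp72Tg sham, and 11.82, 11.83 and 12.18 in Hsp72Tg MCAO. Its MCAO arrays lay above the sham arrays in WT and overlapped them in Hsp72Tg, and the difference was 0.23 (SE 0.105; limma adjusted p = 0.264), or 0.14 without Hsp72Tg sham 2 and 0.33 without Hsp72Tg sham 1. Its paralogue Rpl22l1 differed by -0.02 (SE 0.091) and was highest, at 12.30, in Hsp72Tg sham 1. Rpl3l, known from heart and skeletal muscle, was dim at 4.54 to 4.90 and differed by -0.01 (SE 0.082). Rpl39l, known from testis, was equally dim at 4.58 to 4.82 and differed by 0.04 (SE 0.070), and Rpl39 by 0.05 (SE 0.066). Rpl7l1 differed by -0.04 (SE 0.107) and Rpl7 by 0.16 (SE 0.095). These dim probe sets carried no background flag, so their low levels cannot be told from no signal.

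Only Rpl4 and Rps28 had all 6 MCAO arrays above all 4 sham arrays, 4.08% of the members, against 3.19% of all genes. In 0 members they all lay below, as they did in 3.41% of all genes. Rpl4, whose protein lines the exit tunnel, measured 13.06 and 13.08 in WT sham, 13.02 and 13.11 in Hsp72Tg sham, 13.22, 13.25 and 13.26 in WT MCAO, and 13.11, 13.22 and 13.23 in Hsp72Tg MCAO. The lowest MCAO array, Hsp72Tg MCAO 1, cleared the highest sham array by less than 0.01. The difference was 0.15 (SE 0.060; limma adjusted p = 0.220), and Rps28 differed by 0.13 (SE 0.065; limma adjusted p = 0.293). For Rps28 the lowest MCAO array, Hsp72Tg MCAO 1 at 13.3167, was nearly level with the highest sham array, WT sham 1 at 13.3161.

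In WT alone, 24 of 49 members (49%) had all 3 MCAO arrays above both sham arrays, against 16.4% of all genes. Another 2, Rpl3l and Rps4l, had them all below (4.08%, against 22.5% of all genes). The median difference of the members was 0.10, and 40 of 49 were positive, against 43.3% of all genes. Limma called 0 members, where 0.055% of all genes passed, and 3 members had an unadjusted p under 0.05 (10.2% of all genes did). The highest differences were 0.62 for Rps27l (SE 0.259; limma adjusted p = 0.446), 0.48 for Rplp0 (SE 0.175; limma adjusted p = 0.371) and 0.48 for Rps25 (SE 0.275; limma adjusted p = 0.601). The lowest were -0.46 for Rps4l (SE 0.149; limma adjusted p = 0.302), -0.19 for Rps6 and -0.13 for Rps14. Fitted on the 5 WT arrays alone, Rps25, Rps27l and Rps4l passed, 6.12% of the members, against 5.25% of all genes. With array weights, Rplp0, Rps27l and Rps4l passed, against 7.46% of all genes.

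In Hsp72Tg the median difference was 0.11, and 42 of 49 members were positive, against 44.4% of all genes. Limma called 0 members, where 0.022% of all genes passed, and 0 members had an unadjusted p under 0.05 (12% of all genes did). MCAO arrays lay above both sham arrays for 3 members, Rpl4, Rps16 and Rps28 (6.12%, against 9.05% of all genes), and below them for Rps6 (2.04%, against 12.8%). Rps16 was dim, and its higher Hsp72Tg sham array (4.262) lay just under its lowest Hsp72Tg MCAO array (4.266). The highest differences were 0.58 for Rps25 (SE 0.275; limma adjusted p = 0.431), 0.40 for Rps27l and 0.33 for Rpl27a. The lowest were -0.32 for Rpl14, -0.24 for Rpl7l1 and -0.15 for Rps6. This comparison turned on the sham arrays: without Hsp72Tg sham 2 the median was -0.08 with 15 of 49 members positive, and without Hsp72Tg sham 1 it was 0.25 with 43 positive. Without Hsp72Tg MCAO 1 the Hsp72Tg median was 0.15, and Rps25 alone passed at 0.91 (limma adjusted p = 0.009995), against 6.49% of all genes.

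The MCAO differences of the 2 genotypes, each taken against its own sham arrays, were then compared. The interaction had a median of -0.01 over the members, with 23 of 49 above 0 (47.4% of all genes). Limma called 0 members and 0% of all genes, with 0 members and 1.75% of all genes at an unadjusted p under 0.05. The differences furthest from 0 were -0.40 for Rpl7l1 (95% interval -0.88 to 0.08), -0.28 for Rpl14 (-0.82 to 0.25) and -0.22 for Rps27l (-1.04 to 0.60) on the lower side. On the upper side they were 0.32 for Rps4l (-0.15 to 0.79), 0.26 for Rps14 (-0.22 to 0.74) and 0.19 for Rps27 (-0.27 to 0.65). These intervals are wide next to the MCAO differences themselves. Without Hsp72Tg sham 2 the median was -0.13, and without Hsp72Tg sham 1 it was 0.13.

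After MCAO, 14 of 49 members were higher and 35 lower in Hsp72Tg than in WT, where 44% of all genes were higher. The median was -0.05 (-0.02 over all genes). Limma called 0 members and 0% of all genes, and 0 members against 2.68% of all genes had an unadjusted p under 0.05. The values furthest apart were Rpl7l1 at -0.23 (SE 0.135), Rps27l at -0.18 (SE 0.232) and Rpl14 at -0.15 (SE 0.152). On the other side Rps6 and Rps14 stood at 0.16 and Rpl12 at 0.15. Without Hsp72Tg MCAO 1 the median was 0.00318, with 26 of 49 members positive. After sham surgery the median was -0.03, with 16 of 49 positive (48.2% of all genes). Here 1 array set the direction: without Hsp72Tg sham 2 the median was 0.14 with 41 positive, and without Hsp72Tg sham 1 it was -0.18 with 6 positive. Limma again called 0 members and 0% of all genes, and 0 members against 1.56% of all genes had an unadjusted p under 0.05. Rps4l was at -0.36 (SE 0.163), Rps27 at -0.18 and Rpl3l at -0.18, while Rpl12 was at 0.32 (SE 0.184), Rpl7l1 at 0.17 and Rpl14 at 0.13.

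The members moved together from array to array by about as much as they differed between groups. The member level of an array, taken as the median deviation of the 49 genes from their own means, was -0.06 and -0.04 in WT sham, 0.02, 0.10 and 0.07 in WT MCAO, 0.09 and -0.23 in Hsp72Tg sham, and -0.06, 0.00 and 0.14 in Hsp72Tg MCAO. Hsp72Tg sham 2 was lowest and Hsp72Tg MCAO 3 highest. WT MCAO arrays lay above WT sham arrays, and the Hsp72Tg groups overlapped. The SD within groups was 0.113, about the size of the median MCAO difference. Hsp72Tg sham 2 was the lowest of the 10 arrays for 37 of 49 members, Hsp72Tg MCAO 3 the highest for 21 and Hsp72Tg sham 1 the highest for 14.

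**Figure D3:**
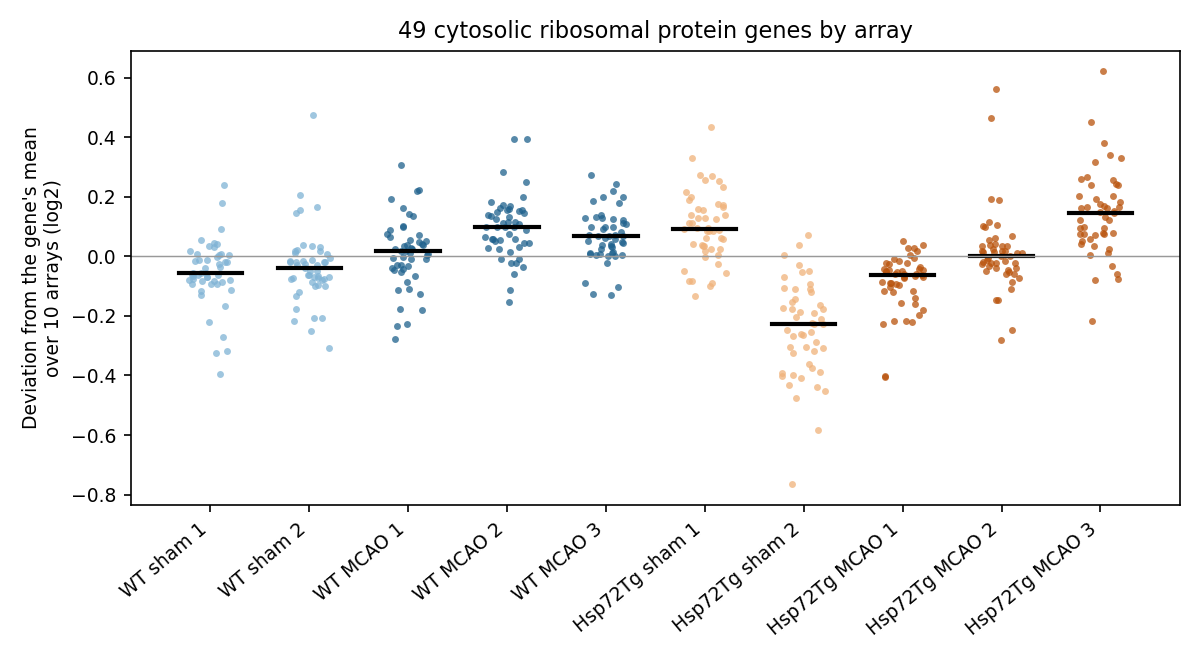
Deviation of each of the 49 members (points) from its own mean over the 10 arrays, on the log2 scale, by array; the black line is the median. The median runs from -0.23 in Hsp72Tg sham 2 to 0.14 in Hsp72Tg MCAO 3, and the Hsp72Tg sham arrays lie on opposite sides of 0.

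Hsp72Tg sham 1 exceeded Hsp72Tg sham 2 by a median of 0.39 over the members, with 45 of 49 positive (91.8%), while the median over all genes was 0.04 with 57.3% positive. The gap was 0.95 for Rps27l, 0.63 for Rpl35 and 0.63 for Rps19. It was absent or turned in Rpl4 (-0.08), Rpl39l (-0.09), Rps16 (-0.05) and Rps29 (-0.03). Of these, Rpl39l and Rps16 were dim, with means of 4.69 and 4.31. Both WT sham arrays were close, with a median difference of -0.02. Genes as bright as the bright members had a median gap of 0.00363 between the Hsp72Tg sham arrays, against 0.38 for the bright members. The gap between those control arrays was thus larger than the median MCAO difference in either genotype.

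Members correlated with each other across the 10 arrays at a median pairwise r of 0.593, and at 0.685 after group means were taken off. For the 35 bright members these values were 0.786 and 0.829, against 0.059 and 0.043 among all genes of that brightness. The 14 dimmer members correlated at 0.194. The large and small subunit levels of the arrays correlated at r = 0.976 (Spearman's rho 0.939, n = 10 arrays). These are descriptions over arrays that share groups and normalization. Rps19 (r = 0.99), Rpl10a (0.976) and Rpl7a (0.976) followed the member level most closely, and Rps6 (-0.111), Rps16 (0.0751) and Rps4l (0.153) least.

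The 18S rRNA control probe sets match the RNA of the small subunit, and whether their values follow its amount was not tested. Their mean over 3 probe sets was 6.55 and 6.63 in WT sham, 9.50, 7.05 and 6.95 in WT MCAO, 7.10 and 6.59 in Hsp72Tg sham, and 6.38, 9.38 and 7.67 in Hsp72Tg MCAO. WT MCAO 1 and Hsp72Tg MCAO 2 stood far above the rest, and Hsp72Tg MCAO 1 was the lowest. MCAO arrays exceeded sham arrays by 1.10 (two-sided exact permutation test within genotype, p = 0.19, adjusted over 6 control measures 0.285; smallest possible p 0.01). Without WT MCAO 1 the difference was 0.687 and without Hsp72Tg MCAO 2 it was 0.710, and leaving out each array in turn gave exact p from 0.05 to 0.3.

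Across the 10 arrays the member level and the 18S level had r = 0.282 and rho = 0.661. Within the 6 MCAO arrays these were -0.0761 and 0.143, and after removal of group means 0.0548 and 0.115. Without the 2 arrays farthest from the median 18S level, WT MCAO 1 and Hsp72Tg MCAO 2, r was 0.797 and rho 0.905 (n = 8). Those arrays had the highest 18S levels and unremarkable member levels of 0.02 and 0.00. Hsp72Tg sham 1 was above Hsp72Tg sham 2 in both measures. The points share total RNA, labelling and normalization, and the correlations are given as descriptions.

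**Figure D4:**
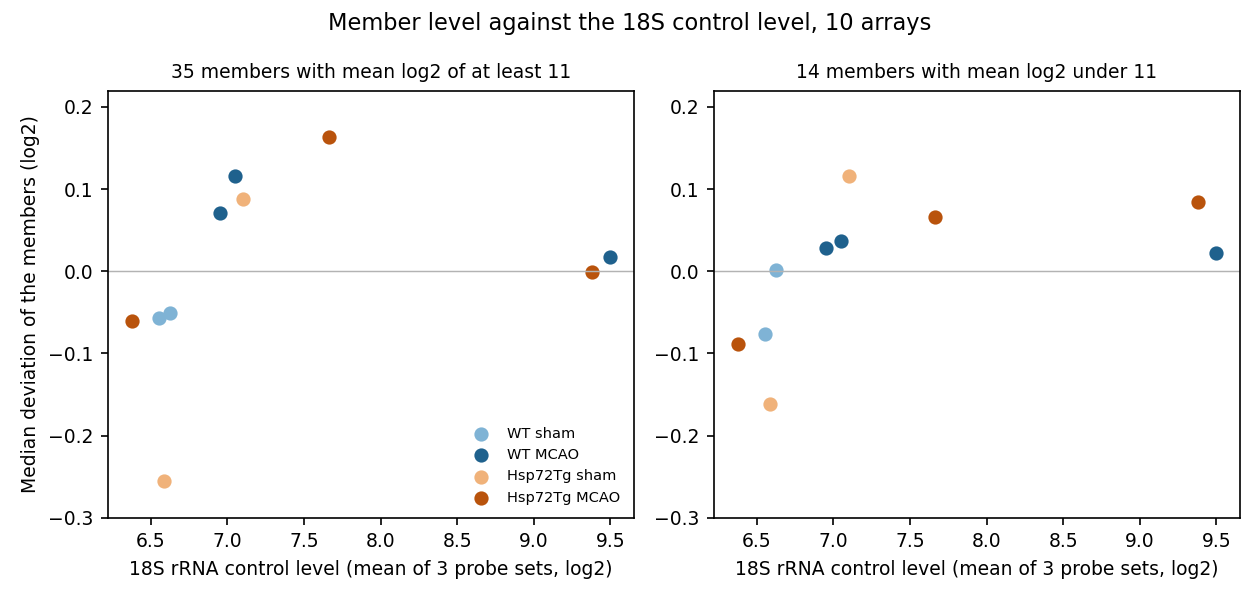
Median deviation of the 35 bright members (left) and of the 14 dimmer members (right) against the mean log2 value of the 3 18S rRNA control probe sets, 1 point per array, coloured by group. WT MCAO 1 and Hsp72Tg MCAO 2 lie alone above 9, and among the other 8 arrays the bright members' level rises with the 18S level (r = 0.791).

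By gene, 37 of 49 members had a positive r with the 18S level (75.5%, against 44.9% of all genes). Rpl27a (r = 0.796) and Rps25 (0.707) were highest, and Rpl14 and Rps6 (both -0.373) lowest. Of the 1306 genes as bright as the bright members, 38.1% had a positive r, and their median level had r = -0.558. The 3′ minus 5′ differences of the control probe sets, a sign of RNA integrity, were 0.712 to 1.18 for Actb and -0.113 to 0.069 for Gapdh. They correlated with the member level at r = -0.456 and 0.0217 (n = 10). With the 18S level they correlated at r = 0.224 (rho -0.2) for Actb and 0.701 (rho 0.25) for Gapdh. WT MCAO 1 and Hsp72Tg MCAO 2, the arrays highest in 18S, had the highest Gapdh differences, 0.069 and -0.0148. Their Actb differences were 1.18, the highest, and 0.885. The part of RNA quality and of the 18S level in the MCAO differences of the members was not tested.

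Related parts of the translation machinery were read from lists of known genes, over both genotypes, against the same 1.46% of all genes called. Of 18 other TOP messages, 14 were higher after MCAO (median 0.10) and 0 passed. Pabpc1, the poly(A)-binding protein, differed by 0.52 (limma adjusted p = 0.0634) and Nap1l1, a histone chaperone, by -0.30 (limma adjusted p = 0.211). Of 21 initiation factors and regulators, 16 were higher (median 0.17), and Eif4ebp1, a repressor of translation initiation that mTOR controls, rose by 0.64 (limma adjusted p = 0.0396). Eif2s2, a subunit of initiation factor eIF-2, differed by 0.40 (limma adjusted p = 0.0695).

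Of 39 ribosome biogenesis genes, 26 were higher (median 0.15). Ncl, which encodes nucleolin, rose by 0.49 (limma adjusted p = 0.0466), while Myc, a driver of ribosome synthesis, differed by 0.94 (limma adjusted p = 0.101) and the helicase Ddx21 by 0.62 (limma adjusted p = 0.0755). The 76 mitochondrial ribosomal protein genes, whose products translate mitochondrial messages, had a median of the opposite sign, -0.11. In that list 67 were lower and 9 higher, 13 of the lower ones at an unadjusted p under 0.05 (10.8% of all genes were), and Mrps6 rose by 0.82 (limma adjusted p = 0.0477). Mrpl14 differed by -0.40 (limma adjusted p = 0.159). Fau, whose product includes a small subunit protein outside the naming rule, differed by 0.00204.

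Levels of cell type markers were read in the same arrays. Neuronal markers were lower after MCAO in 7 of 8 (median -0.12), 3 of them at an unadjusted p under 0.05 and 0 after adjustment, with Nefl at -0.30 and Stmn2 at -0.23. Their mean log2 level was 12.6 to 12.7 in WT sham, 12.4 to 12.6 in WT MCAO, 12.5 to 12.7 in Hsp72Tg sham and 12.3 to 12.7 in Hsp72Tg MCAO. The mean log2 level of 5 of 5 endothelial markers was 7.27 to 7.41 in WT sham, 7.74 to 8.22 in WT MCAO, 7.42 to 7.64 in Hsp72Tg sham and 7.78 to 8.41 in Hsp72Tg MCAO. Pecam1 (1.003; limma adjusted p = 0.0350) and Cldn5 (0.65; limma adjusted p = 0.0360) rose, and Cdh5 differed by 1.13 (limma adjusted p = 0.0557). Over both genotypes 4 endothelial markers were higher and 1 lower (median 0.65), the lowest at -0.25. In Hsp72Tg alone the lowest difference was -0.63, with 4 higher and 1 lower. Of the astrocyte markers (6 of 6 measured), 4 were higher and 2 lower (median 0.15). Gfap rose by 1.60 (limma adjusted p = 0.0113), while the others lay between -0.13 (Gja1) and 0.27 (Aqp4), and the list's level was 11.2 to 11.3 in WT sham, 11.5 to 11.6 in WT MCAO, 11.2 in both Hsp72Tg sham arrays and 11.5 to 11.6 in Hsp72Tg MCAO. Neutrophil markers (5 of 6 measured) ran from 5.57 to 6.82 in WT sham, 7 to 7.47 in WT MCAO, 6.10 to 6.25 in Hsp72Tg sham and 5.86 to 8.34 in Hsp72Tg MCAO. S100a9 differed by 2.49 and S100a8 by 2.38 (limma adjusted p = 0.131 and 0.144). The neutrophil list had a median of only 0.27 over both genotypes, with 4 higher and 1 lower (-0.11). In WT its median was 0.11, with 3 higher and 2 lower. Lymphocyte markers (6 of 7 measured), of cells rich in ribosomal messages, stayed between 5.37 and 5.50 in the 4 groups, and red cell markers (3 of 4 measured) between 5.16 and 6.22. Cerebellar granule cell markers (5 of 5 measured) reached 8.63 in 1 WT sham array and lay between 6.51 and 6.75 in all others. The part of these cell types in the members' differences was not tested.

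Wider sets of probe sets gave similar medians. Of all 105 single-symbol probe sets of the members, which include the 49 used above, 83 were higher after MCAO (median 0.08). Over all 45037 probe sets 20739 were higher (median -0.01). Of the 110 probe sets with several symbols, which cover most of the genes left out, 88 were higher (median 0.09). Each taken on its own, 0 of these 215 passed limma's test (lowest adjusted p = 0.138), where 0.433% of all probe sets passed. At an unadjusted p under 0.05 stood 21 of the 215, against 16.3% of all probe sets. Many of these sequences resemble processed pseudogenes and paralogues, so a probe set can read more than 1 locus.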

How the data were processed

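The deposited values were log2 expression values made with RMA by the authors, per the submitters' processing notes; its version is not given in the sources used here. RMA corrects background, normalizes across arrays and summarizes probe sets, which pulls all arrays to 1 distribution and can hide a shift shared by all genes. Values ran from 3.49 to 14.7. Of 45101 probe sets, 64 were controls, 34945 carried 1 symbol, 932 several and 9160 none. Symbols come from the platform annotation; all 49 members matched RefSeq by Entrez identifier.

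Groups came from the sample titles. Limma 3.58.1 in R 4.3.3 fitted a mean per group over 10 arrays (6 residual and 3.72 prior degrees of freedom), two-sided, with Benjamini-Hochberg adjustment over 18193 genes and calls at adjusted p under 0.05. The script was tested on simulated data. Start windows were read from a RefSeq promoter table with Python 3.11.15.

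Members, gene lists and tests were chosen with earlier results of these data known. Always named were the stalk genes, Rpsa, Rps6, Rps27a and 7 paralogue pairs (20 genes, 15 measured). Then came the 3 members per direction with the largest difference in each comparison, members called, and of each other list the 2 largest differences and calls. Rps26, Rps28, Rpl4, Rps2, Rpl35, Rps19, Rpl10a, Rpl7a, Rps16, Rps18 and Rps29 were added after their values or sequences were seen. Marker lists for oligodendrocytes, microglia and choroid plexus were also read. Alternatives were a replicate block, only the groups compared, trend and robust eBayes, array weights, quantile normalization, median centring, other probe set rules, a filter on dim genes, leaving out single arrays and adjusted p under 0.01. A second set was chosen after seeing the data: a fit without the 2 arrays highest in 18S, bright members only, and probe sets with several symbols.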

Additional observations from a re-analysis of the deposited data

How the results depend on the processing

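Of the member counts, medians and relations under the alternatives, 282 kept their reading and 12 moved; of named members' differences, 529 kept sign and call, 19 reversed and 3 became calls. Over both genotypes the count of members called was 1 with array weights and 0 to 3 when arrays were left out in turn, and the median then ran from 0.01 to 0.19. In WT the count was 3 with array weights and 3 on the compared arrays only, and leaving out arrays gave a median of 0.083 to 0.12. In Hsp72Tg leaving out arrays gave 0 to 1 calls and a median of -0.076 to 0.25. The genotype difference of the MCAO changes had medians of -0.13 to 0.13, Hsp72Tg minus WT after MCAO -0.09 to 0.00318, and after sham surgery -0.18 to 0.14. The relation to the 18S level was 0.797 without the 2 arrays highest in 18S and 0.172 to 0.363 without single arrays.

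With the replicate number as a block the median over both genotypes was 0.07 with 0 calls, Rpl3l turned to 0.024, and calls over all genes went from 266 to 19. The arrays were not treated as paired, since the labels do not say that a number is shared and only 3 of 13 same-number pairs correlated over 0.1. That 7 of 10 arrays correlated best with their own number is a hint from the data, not the design.

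Other probe sets turned Rpl7l1 (0.025 over both genotypes, 0.018 in Hsp72Tg, 0.058 for genotype after MCAO), Rps4x (-0.0047), Rpl27a in Hsp72Tg (-0.059) and Rps6 in Hsp72Tg (0.22). Those of Rps4x, Rpl27a and Rps6 were dim, with means of 5.42, 5.39 and 4.52, so their signs carry little weight. With arrays left out in turn, differences over both genotypes spanned 0 for Rpl22l1 (-0.13 to 0.087), Rpl3l (-0.075 to 0.046), Rpl7l1 (-0.15 to 0.066) and Rps27 (-0.023 to 0.22). In Hsp72Tg Rps27l ran from -0.076 to 0.88. For the genotype difference of the MCAO changes Rps27 ran from -0.058 to 0.44 and Rps27l from -0.70 to 0.26. After sham surgery the genotype difference ran from -0.13 to 0.39 for Rpl14, -0.045 to 0.39 for Rpl7l1 and -0.43 to 0.063 for Rps27. The cause was not tested. Sham groups of 2 arrays set the precision, and no flag for signal over background was used.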

Other observations

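A second probe set of Rps9 read 6.61 in WT sham 1 and 9.74 to 11.01 in the other 9 arrays, which gave an MCAO difference of 1.43 (limma adjusted p = 0.208), while the probe set used for Rps9 gave 0.08. It was singled out after its values were seen.

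The mean log2 level of microglial markers (6 of 6 measured) lay between 8.01 and 8.60 in WT sham and between 7.63 and 8.45 in Hsp72Tg MCAO. Of these, 3 were higher and 3 lower after MCAO over both genotypes (median 0.04); Itgam differed by 0.56 and P2ry12 differed by -1.67 (limma adjusted p = 0.0586). Mog, an oligodendrocyte gene, fell by 0.58 (limma adjusted p = 0.0477), in a list of 4 measured of 5 whose median was 0.01. Choroid plexus markers (4 of 4 measured) lay between 9.19 and 9.85 in the 4 groups. Their part in the members' differences was not tested.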
